A study of Arabidopsis thaliana with 24 samples.

Results

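Seedlings of Arabidopsis thaliana lacking phytochromes A and B (phyAphyB) were compared with seedlings lacking phytochrome A alone (phyA), all kept in darkness. The arrays were chosen by their genotype and light labels, 3 for each genotype, which makes 6 of the 24 arrays of the series. Each array carried 22810 Affymetrix probe sets and was hybridised with RNA of whole seedlings, with root, hypocotyl and cotyledon together, at 4 days of age. By their labels, dark phyAphyB and dark phyA seedlings share the absence of phytochrome A and the lack of any light treatment, and differ by phytochrome B. Further groups of 3 arrays each were used beside them. Red phyAphyB and red phyA seedlings of the same age had received 1 h of red light at 680 nm and 8 µmol m-2 s-1, and dark phyB and dark wild-type seedlings had been left unlit. The labels name neither the alleles nor the parental strain, and whether the lines differ elsewhere in the genome was not tested. The labels call the arrays of a group biological replicates without naming separate cultures, so p-values measure the spread between these samples only.

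Phytochromes are photoreceptors that switch between an inactive form made in darkness and an active form made in red light. Phytochrome A accumulates in darkness, is broken down quickly in light and is known for responses to far-red and very weak light. Phytochrome B is more stable and is the main receptor of red light in de-etiolation, the change of a dark-grown seedling with a long hypocotyl and closed, pale cotyledons into a green one. The comparison therefore asks how the transcriptome differs with and without phytochrome B where phytochrome A is missing and no light has been given. PHYA and PHYB were not among the named probe sets, and the genotype labels have no check from the transcripts of the mutated genes.

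The arrays differed in a ribosomal control. The array's 25S ribosomal RNA control read 197.5, 146.4 and 115.8 on the dark phyAphyB arrays, against 98.7, 10507.9 and 13573.9 on the dark phyA arrays. The remaining 18 arrays of the series lay between 46.8 and 450. Dark phyA replicates 2 and 3 stood apart, and dark phyA replicate 1, without the high ribosomal signal, had the lowest mean correlation with its own group in the series (0.954, against 0.966 and 0.969 for replicates 2 and 3 and 0.976 to 0.981 for dark phyAphyB). The main counts are therefore also given against replicate 1 alone, which leaves out both arrays with the high signal, and without it. Among organ markers, the root beta-glucosidase PYK10 read 20004, 17262 and 22430.1 in dark phyAphyB and 24481, 20433 and 23103 in dark phyA. The antenna protein gene LHCB4.1 was bright in both. The root marker EXPA18 (mean 111.0 in dark phyAphyB and 74.5 in dark phyA) and the guard cell marker FMA (86.7 and 106.7) were dim. Dark phyB replicate 2 and dark wild-type replicate 2 also stood apart, since each lay towards the other genotype in some genes that differ strongly between phyB and wild type, for which values are given with those genes. What part this has in the phyB minus wild type values was not tested. In RNA of whole seedlings, fewer cells of a type and less RNA per cell cannot be told apart.

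Of 15085 probe sets tested with limma, 1873 differed between dark phyAphyB and dark phyA at an adjusted p under 0.05, which is 12.4%. The calls were divided evenly, with 931 higher in phyAphyB (6.17%) and 942 lower (6.24%), and the median log2 difference over all tested probe sets was -0.003. A change of at least 2-fold was called for 466 probe sets (3.09%), 217 of them higher (1.44%) and 249 lower (1.65%). The signals of the 3 phyAphyB arrays and the 3 phyA arrays did not overlap for 453 of the 466. The 466 were chosen on these same arrays, so this separation is no independent check. Over all 15085 probe sets, 4195 (27.8%) had no overlap. In 24 of the 466 the change was at least 8-fold. The dimmer group of 172 of the 466 had a mean signal under 97.4, the lowest of the arrays' own 40th percentiles, where MAS5 signals scatter widely on a log scale, so the size of those folds is uncertain.

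The large differences were taken again with fewer phyA arrays. Against dark phyA replicate 1 alone, 464 of the 466 kept their direction and 294 (63.1%) were called the same way from 4 arrays in place of 6, namely 67.7% of the rises and 59% of falls. The 466 were chosen with replicate 1 in the fit and the phyAphyB arrays are the same, so the shared direction is no independent check. With replicate 1 left out, 447 of the 466 (95.9%) were called the same way. Of all 1873 calls, which include these 466, 1521 (81.2%) were called the same way with replicate 1 left out. The number of calls was 965 against replicate 1 alone, 2320 without it, 1236 without phyAphyB replicate 1, 1127 with these 6 arrays fitted alone and 3956 with array weights.

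The genes named here are the 12 largest rises and 12 largest falls among called genes whose arrays did not overlap and whose brighter group lay above the median signal. AT3G47250, a member of a plant protein family of unknown function, gave signals of 413, 506 and 479.8 in dark phyAphyB, against 8.1, 4.7 and 15.9 in dark phyA. All 3 phyAphyB arrays were bright and all 3 phyA arrays were near the bottom of the scale, a fitted difference of 55-fold (log2 5.78 ± 0.60 SE, adjusted p = 2.35e-07). A relative of it, AT3G47210, read 479, 447 and 392 in phyAphyB and 104, 52.6 and 79.6 in phyA, 5.78-fold higher. AT2G16005, which encodes a protein with a lipid-recognition domain, had the highest mean signal of the 12 rises. It gave 3331, 2515 and 2946 in phyAphyB, against 91.3, 75.9 and 108 in phyA, a 32-fold difference (log2 5.0 ± 0.28, adjusted p = 2.74e-12). PME61, a pectin methylesterase, read 589, 619.6 and 594 in phyAphyB, against 83.1, 56.7 and 49.0 in phyA. Its phyAphyB signals lay close together and the gene was 9.79-fold higher (adjusted p = 1.64e-06). RALFL32 encodes a small secreted peptide of the RALF family, whose members act on growth through receptor kinases. Its signals were 3017, 1962 and 2758 in phyAphyB and 454, 406 and 376 in phyA, 6.18-fold higher (adjusted p = 1.61e-10).

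Further rises concerned genes of diverse families. AT4G18975, a pentatricopeptide repeat gene of the kind that binds organellar RNA, gave 1072, 1445 and 1315 in phyAphyB and 198, 262 and 233 in phyA (5.53-fold). AT4G17215, a gene of the pollen-allergen and extensin-like family, gave 1250.3, 1906 and 1364 in phyAphyB and 314, 278 and 300.0 in phyA (4.98-fold). Both genes were chosen for having no overlap between genotypes. The highest and lowest phyA arrays of each differed by far less than the gap between genotypes. AT2G19310, a small heat shock protein-like gene, read 507, 473 and 574 in phyAphyB and 126, 75.9 and 85 in phyA (5.53-fold). AT4G13860, a glycine-rich RNA-binding protein gene, read 248, 152 and 216 in phyAphyB and 33.7, 27.6 and 21.1 in phyA (7.45-fold). AT1G20490, which resembles the 4-coumarate:CoA ligases that activate phenylpropanoid acids, read 263, 356 and 293 in phyAphyB and 23.0, 58.8 and 69.7 in phyA (6.62-fold). A pair of rises depended on the arrays used. For AT2G04800 the signals were 412, 272 and 330.1 in phyAphyB and 73.5, 45.1 and 6.1 in phyA, and the adjusted p against phyA replicate 1 alone was 0.0623. For AT2G04500, a cysteine- and histidine-rich C1 domain protein gene, they were 171, 201 and 202 in phyAphyB and 71.6, 12.9 and 21.9 in phyA, with adjusted p = 0.0176. Its call was lost without phyA replicate 2, without phyA replicate 3 or without phyAphyB replicate 2, and against phyA replicate 1 alone (adjusted p = 0.054 to 0.482). Where a range of adjusted p follows a lost call, here and for later genes, it spans every alternative processing that lost it unless it is tied to named fits.

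The falls were as large as the rises. AT4G01910, a C1 domain protein gene, gave 10.4, 8.1 and 11.7 in dark phyAphyB, against 237, 298 and 363 in dark phyA. It was near the bottom of the scale in each phyAphyB seedling sample and the fitted fall was 29.6-fold (log2 -4.89 ± 0.23, adjusted p = 1.16e-13). A further C1 domain gene, AT4G02540, read 135, 95.9 and 118 in phyAphyB and 1509, 2162 and 1645 in phyA, 15.2-fold lower. AT4G04460, an aspartic protease gene, was bright wherever it was not lost. Its signals were 185, 157 and 126 in phyAphyB and 2858, 2782 and 3084 in phyA, 18.9-fold lower (log2 -4.24 ± 0.14, adjusted p = 9.75e-17). AT4G19500 encodes a nucleotide-binding leucine-rich repeat protein of the class of intracellular immune receptors. Its signals were 98.9, 27.5 and 31.8 in phyAphyB, against 623, 820.0 and 812 in phyA, 16.9-fold lower (adjusted p = 0.000139). PIP, a proline iminopeptidase that removes proline from the end of peptides, gave 394, 448 and 372 in phyAphyB and 2609.5, 2344 and 2777 in phyA, 6.37-fold lower (adjusted p = 9.98e-11).

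A pair of neighbouring genes, AT5G38020 and AT5G38030, fell together. AT5G38020 belongs to a family of methyltransferases that act on small carboxylic acids and read 99.8, 83.8 and 98.3 in phyAphyB and 709.9, 854 and 946 in phyA (8.87-fold lower). AT5G38030, a transporter of the multidrug and toxin efflux family, read 104, 84.9 and 74.0 in phyAphyB and 436, 563 and 598 in phyA (6.07-fold lower). AT4G20860, a flavin-binding oxidase of the berberine bridge enzyme family, read 140.5, 206 and 118 in phyAphyB and 802, 1275 and 891 in phyA (6.44-fold lower). That the highest phyAphyB array lay below the lowest phyA array was a condition for naming each of these genes. AT1G17960, a threonyl-tRNA synthetase gene, read 88.9, 30.0 and 25.7 in phyAphyB and 285, 272 and 357 in phyA. AT3G63340, of the PP2C protein phosphatase family, read 30.2, 33.8 and 21.8 in phyAphyB and 259.8, 323 and 258 in phyA. AT3G61010 read 71.5, 55.8 and 76.6 in phyAphyB and 859, 1189 and 1219 in phyA, 16-fold lower. AT2G23480, annotated as a pseudogene and read by a probe set whose name marks probes that may match other transcripts, gave 60.6, 38.0 and 36.6 in phyAphyB and 477, 477 and 445 in phyA. None of the 12 falls lost its call when any array of the 2 groups was left out or against phyA replicate 1 alone.

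**Figure D1:**
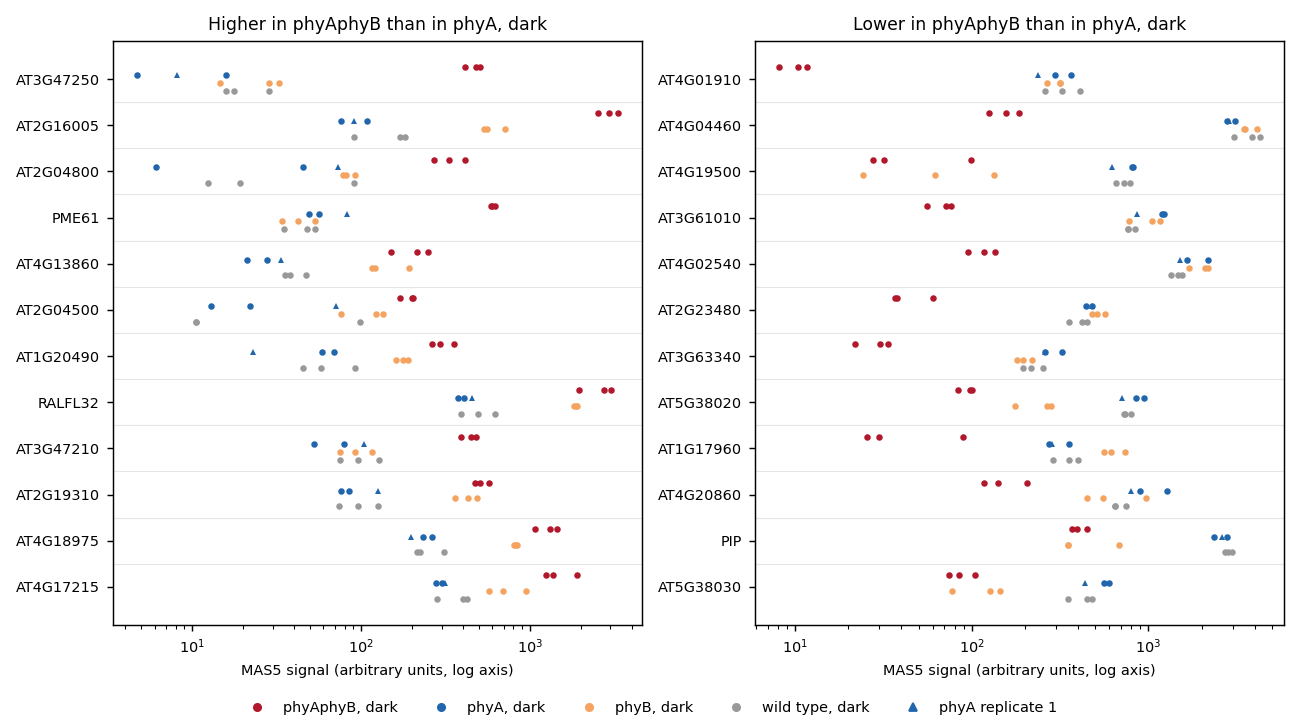
MAS5 signal (arbitrary units, log axis) of the 12 largest named rises (left panel) and 12 largest named falls (right panel) between dark phyAphyB and dark phyA, with 1 point per array and dark phyA replicate 1 as a triangle. Dark phyB and dark wild-type arrays complete each row. For AT4G04460 the 3 phyAphyB arrays lie between 126 and 185 and all 9 other dark arrays between 2782 and 4301.

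Large differences were also read by probe sets without a gene name. The most extreme rise among them that met the same criteria gave 1100.1, 1210.7 and 1174.2 in dark phyAphyB and 94.8, 126.4 and 116.0 in dark phyA (10.4-fold), and a second one 265.4, 399.0 and 301.0 in phyAphyB and 53.6, 24.2 and 24 in phyA (10.08-fold). Both were also bright in dark phyB, at 1213.3 to 1271.0 and 414.6 to 444.4. The most extreme fall gave 20.9, 22.6 and 4.6 in phyAphyB and 257.1, 234.8 and 177.9 in phyA (17.0-fold). The next gave 81.5, 58.2 and 122.7 in phyAphyB and 823.5, 930.6 and 957.8 in phyA (10.8-fold), and stayed bright in dark phyB, at 636.9 to 827.5. Absence of overlap between the genotypes was one of the criteria for choosing these 4. Of the 466 probe sets called at 2-fold or more, 270 had 1 gene and 196 had no name or several, so the named genes describe only a part of the difference.

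The same genotypes were compared after 1 h of red light on 6 other arrays, none of which carried the high ribosomal signal. There 1292 probe sets were called (8.56%), 604 higher in phyAphyB (4%) and 688 lower (4.56%), and 403 at 2-fold or more (2.67%). Of the 466 large dark differences, 439 had the same direction after red light and 331 (71.0%) were called the same way, with 2 called the opposite way. These 331 are 25.6% of the red calls. Among all 1873 dark calls 748 (39.9%) were called the same way, 57.9% of the red calls, and 7 the opposite way. Over all 15085 probe sets the dark and red log2 differences had a Pearson correlation of 0.642, a description across probe sets, which are not independent.

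The leading genes were set apart after red light as well. AT2G16005 gave 3081, 3660.5 and 2854 in red phyAphyB and 84.1, 97.6 and 34.0 in red phyA (48.7-fold higher, adjusted p = 3.03e-13). AT3G47250 gave 523, 523 and 397 in red phyAphyB and 39.9, 43.0 and 12.5 in red phyA (17.2-fold higher). AT4G04460 gave 174, 181 and 169 in red phyAphyB and 3478, 3202 and 3654 in red phyA (19.7-fold lower, adjusted p = 6.85e-17). PME61, AT4G19500 and AT4G02540 likewise had differences of 15.9-fold higher, 27.2-fold lower and 17.3-fold lower. Of the 24 leading genes, AT2G04500 was the exception in the red-light test (log2 2.08 ± 0.78, adjusted p = 0.11).

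**Figure D2:**
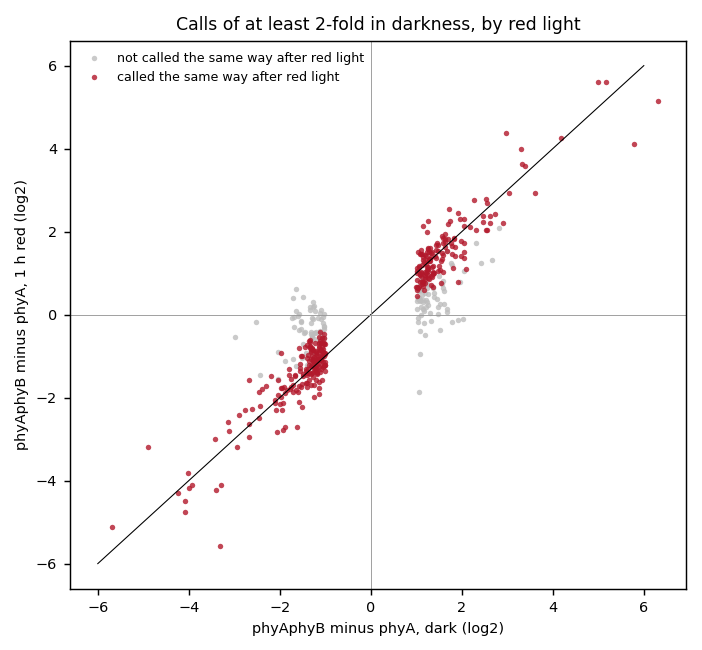
Log2 difference phyAphyB minus phyA in darkness (x axis) and after 1 h of red light (y axis) for the 466 large dark differences, with the line of equality. Red points are the 331 called the same way after red light, and 439 of the 466 have the same sign on both axes.

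Whether the difference between the genotypes itself changed with red light was tested next. The test of the red difference minus the dark difference called 55 (0.365%), 10 higher (0.0663%) and 45 lower (0.298%), with 1516 at an unadjusted p under 0.05 (10%), and 9 of the 466 large dark differences were among them. The count was 66 against dark phyA replicate 1 alone and 150 without it, and with array weights it was 348, of which 138 were higher and 210 lower. EXO, a brassinosteroid-responsive gene that promotes cell expansion, was not called in darkness and was far apart after red light. It gave 7567, 7072 and 6544 in dark phyAphyB and 5476, 6025 and 5174 in dark phyA, and 3711, 4185 and 3881 in red phyAphyB and 996, 1098 and 795 in red phyA. The genotype difference was 0.35 ± 0.15 in darkness (adjusted p = 0.133) and 2.04 ± 0.15 after red light on the log2 scale, and their difference was 1.69 ± 0.21 (adjusted p = 0.000205). SWEET17, a vacuolar fructose transporter gene, did the reverse. It gave 603, 497 and 479 in dark phyAphyB and 222, 141 and 164 in dark phyA, against 490.3, 403 and 409 in red phyAphyB and 389, 394 and 314 in red phyA. Its dark difference of 3.04-fold (adjusted p = 6.8e-07) was larger than the red one by 1.35 on the log2 scale (adjusted p = 0.00913). AT5G15950, an S-adenosylmethionine decarboxylase gene of polyamine synthesis, read 599.6, 519 and 592 in dark phyAphyB and 448, 542 and 556 in dark phyA, where the groups overlapped. After red light it read 752, 680.1 and 851 in phyAphyB and 1770.2, 1606 and 1591 in phyA (interaction log2 -1.28 ± 0.20, adjusted p = 0.00187). AT5G50360 was higher in dark phyAphyB (240.5, 250.1 and 195) than in dark phyA (59.5, 108 and 154, adjusted p = 0.00272), and was not called after red light (log2 -0.49 ± 0.26, adjusted p = 0.32). Of the 24 leading dark genes AT4G01910 alone was called here, with signals of 30.5, 22.5 and 38.2 in red phyAphyB and 268, 256 and 293 in red phyA, still 9.15-fold lower. That call was lost with a pseudocount, with the compared groups fitted alone and against dark phyA replicate 1 alone (adjusted p = 0.153 to 0.324). AT2G46420, AT1G76220 and the cation exchanger family gene AT5G17850 had interaction values of -1.24, 1.59 and 1.00. EXO and AT5G15950 kept their calls in all alternatives. Against dark phyA replicate 1 alone SWEET17 (adjusted p = 0.162) and AT2G46420 lost theirs, and AT5G50360, AT1G76220 and AT5G17850 lost theirs in 12 or 13 alternatives each, most of them with a single array left out (adjusted p = 0.0506 to 0.236 over the 3).

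Loss of phytochrome B could also be read where phytochrome A was present, from dark phyB against dark wild type, which are 6 arrays that share none with the present comparison. That test called 1090 probe sets (7.23%), 321 at 2-fold or more (2.13%). Of the 466 large differences between phyAphyB and phyA, 163 (35.0%) were called the same way in phyB against wild type and 9 the opposite way. They are 15.0% of the phyB calls. The dark phyAphyB minus phyA difference less the phyB minus wild type difference was tested itself and was called for 915 probe sets (6.07%), 442 higher (2.93%) and 473 lower (3.14%). It was called for 557 against dark phyA replicate 1 alone, for 1359 without it and for 2298 with array weights. Among the 466, 143 were called the same way with no called difference between backgrounds, 20 were called the same way with a called difference in size, 162 had a called difference and no such call in phyB, and 141 had neither. The correlation of the log2 differences over 15085 probe sets was 0.239.

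The genes called the same way in both backgrounds include PIP, with 351, 686 and 352 in dark phyB and 2726, 2814 and 2987 in dark wild type. Its log2 difference was -2.69 ± 0.18 there and -2.67 ± 0.18 in the phyA background. AT4G19500 read 62.1, 134 and 24.3 in phyB and 656, 728 and 782 in wild type, 12.3-fold lower. RALFL32 read 1816, 1914 and 1878 in phyB and 394, 620.0 and 496 in wild type, 3.78-fold higher. AT2G19310 was 4.38-fold higher and AT5G38030 3.77-fold lower in phyB than in wild type. In each of these 5 genes the test of the difference between backgrounds gave an adjusted p of 0.105 or more. The arrays lacking phytochrome B did not overlap with those that have it. Absence of overlap between phyAphyB and phyA was a condition for naming these genes, and a call in phyB for listing them here. Their separation is therefore no independent check. AT2G16005, AT4G17215, AT4G18975 and AT5G38020 moved the same way in both backgrounds but further between phyAphyB and phyA. For AT4G18975 the called difference in size, 0.73 ± 0.21, was lost in 10 of 22 alternatives, 8 of them with a single array left out (phyA replicate 1 or 3, phyAphyB replicate 2 or 3, any phyB array or wild-type replicate 2, adjusted p = 0.0579 to 0.105 over the 10). For AT4G17215 it was lost against phyA replicate 1 alone (adjusted p = 0.0859). AT2G16005 gave 532, 717 and 554 in phyB and 182, 171 and 91.3 in wild type, 4.21-fold higher, which left a difference between backgrounds of 2.93 ± 0.39 on the log2 scale (adjusted p = 2.71e-05). AT2G19310 lies near PHYB on chromosome 2, where PIP and AT2G16005 also lie. What part their position has in these differences was not tested.

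Other leading genes differed between phyAphyB and phyA and were not called in phyB against wild type. AT4G04460 gave 3482, 4126 and 3520.3 in dark phyB and 3057, 4301 and 3866 in dark wild type. These levels overlap and are as high as in phyA, and the fall in phyAphyB had a difference between backgrounds of -4.23 ± 0.19 (adjusted p = 2.94e-13). AT4G02540 gave 2168, 1689.7 and 2087 in phyB and 1550.4, 1344 and 1465 in wild type (difference between backgrounds -4.37 ± 0.22). AT4G01910 gave 318, 317 and 267 in phyB and 409.7, 324 and 259 in wild type (-4.77 ± 0.32). PME61 was dim in both, with 42.5, 53.1 and 34.0 in phyB and 34.8, 53.1 and 48.0 in wild type, and had a difference between backgrounds of 3.36 ± 0.55. AT3G47250 read 32.7, 14.6 and 28.6 in phyB and 28.7, 15.9 and 17.6 in wild type (5.52 ± 0.85), and its relative AT3G47210 had 2.61 ± 0.37. AT3G61010, AT2G23480, AT3G63340, AT1G17960 and AT4G20860 also had called differences, from -2.56 to -4.31. AT4G01910, AT4G02540 and AT4G04460 are among the first 200 tested genes of chromosome 4. Of these 200, 21 were called at 2-fold or more between phyAphyB and phyA, and 0 between phyB and wild type by limma. The part of gene position and of the unnamed strains was not tested.

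The same test brought up genes that changed in phyB and were level between phyAphyB and phyA. AT2G25450, a dioxygenase gene that hydroxylates glucosinolate side chains, was bright in phyAphyB (10151, 10561 and 11334) and in phyA (9891, 9551 and 9993). It read 426, 2133 and 530.4 in dark phyB and 10960.5, 10109 and 9959 in dark wild type. Its log2 difference was 0.12 ± 0.32 between phyAphyB and phyA and -3.72 ± 0.32 between phyB and wild type (test of the difference, adjusted p = 4.98e-06). AT5G23830, a lipid-recognition domain gene of the same family as AT2G16005, gave 609.9, 604 and 691 in phyAphyB and 452, 735 and 612 in phyA, with overlap, against 6.2, 113 and 13.7 in phyB and 569.8, 638 and 631 in wild type. AT3G47320, annotated as a pseudogene, gave 9.2, 3.3 and 1.5 in phyAphyB and 7.4, 3.1 and 5.8 in phyA, and 1391, 1198 and 1355 in phyB and 1.7, 75.0 and 0.2 in wild type. AT1G23960 gave 35.4, 3.9 and 2.7 in phyAphyB and 5.7, 3.3 and 7.0 in phyA, and 2145, 1710.5 and 1894 in phyB and 6.9, 171 and 3.3 in wild type. The difference between backgrounds of AT1G23960 was not called without wild-type replicate 3 or against phyA replicate 1 alone (adjusted p = 0.0563 to 0.0708). For AT3G47320 and AT1G23960 dark phyB was bright and the other dark groups were dim, and wild-type replicate 2 (75.0 and 171) lay between the phyB arrays and its own group (0.2 to 6.9). For AT2G25450 and AT5G23830 phyB replicate 2 (2133 and 113) lay between the wild-type arrays and the other phyB arrays. Whether RNA of the groups was mixed on these 2 arrays was not tested, and the sizes of the phyB minus wild type differences are uncertain to that extent. The test of the difference between backgrounds was called for 949 probe sets without phyB replicate 2 and for 743 without wild-type replicate 2.

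**Figure D3:**
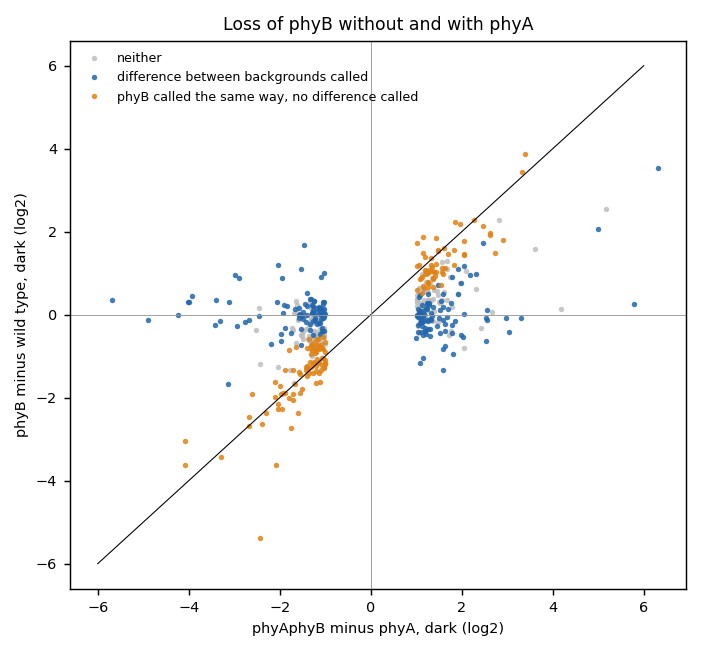
Log2 difference phyAphyB minus phyA in darkness (x axis) against phyB minus wild type in darkness (y axis) for the 466 probe sets called at 2-fold or more between phyAphyB and phyA, with the line of equality. The 143 orange probe sets were called the same way in both with no called difference, while the 182 blue ones had a called difference between backgrounds and many lie along the line of no change in phyB.

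The called genes were not spread evenly along the chromosomes. In the gene order of the TAIR10.1 assembly, 8009 tested genes could be placed, of which 265 (3.31%) were called at 2-fold or more. Chromosome 4 held 94 of them among 1186 genes (7.93%), 43 higher and 51 lower in phyAphyB, against 171 of 6823 genes (2.51%) on the others. Against dark phyA replicate 1 alone the shares were 6.16% on chromosome 4 and 2.77% elsewhere. In the red-light arrays they were 5.9% and 2.02%. In phyB against wild type they were 3.63% and 2.01%. Most of these genes lie towards the start of the chromosome, since the first 12 bins of 50 neighbouring genes, from AT4G00040 to AT4G23050, held 73 of 600 genes (12.2%) and the remaining 12 bins 21 of 586 (3.58%). Of 162 such bins in the genome 14 had 5 or more large differences, 9 of them on chromosome 4.

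The bin from AT4G19160 to AT4G21326 had the most, with 10 genes in phyAphyB against phyA, 8 in the same bin after red light and 10 in phyB against wild type. AT4G19450, AT4G19470, AT4G19500 and AT4G19510 follow each other in the order of tested genes, and all 4 fell in dark phyAphyB, by 1.06, 2.10, 4.08 and 2.09 on the log2 scale. AT4G13840, AT4G13860 and RALFL31 are also neighbours, but moved in unlike directions (-1.65, 2.90 and 2.09). These runs were picked after their values were seen. The first 4 bins of chromosome 4, which hold AT4G01910, AT4G02540 and AT4G04460, had 21 large differences here and 16 after red light, but 0 between phyB and wild type by limma. At an unadjusted p under 0.05 that last count was also 0 at 2-fold or more and 20 of 200 genes at any size. On other chromosomes, the bin from AT5G36230 to AT5G38730, with AT5G38020 and AT5G38030, had 8, and the bin from AT3G45880 to AT3G47800, with AT3G47210 and AT3G47250, had 5. The bin from AT2G18100 to AT2G19830, with AT2G19310, covers the position of PHYB and had 4, and 7 in phyB against wild type. On the same chromosome, the bin from AT2G12250 to AT2G16270, with AT2G16005 and PIP, had 6 in each of these comparisons. Near the mutated genes, 15 of the 200 tested genes within 100 on either side of PHYB were called at 2-fold or more (7.5%), 11 after red light, and 18 in phyB against wild type (9%). Around PHYA, which is mutated in both genotypes, the count was 0 of 200 by limma, or 1 at an unadjusted p under 0.05. At any size, 16 of 200 were called around PHYA (8%) and 42 of 200 around PHYB (21%). Over all 8009 placed genes the shares were 12.3% at any size and 3.31% at 2-fold or more. The part of gene position in these differences was not tested.

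**Figure D4:**
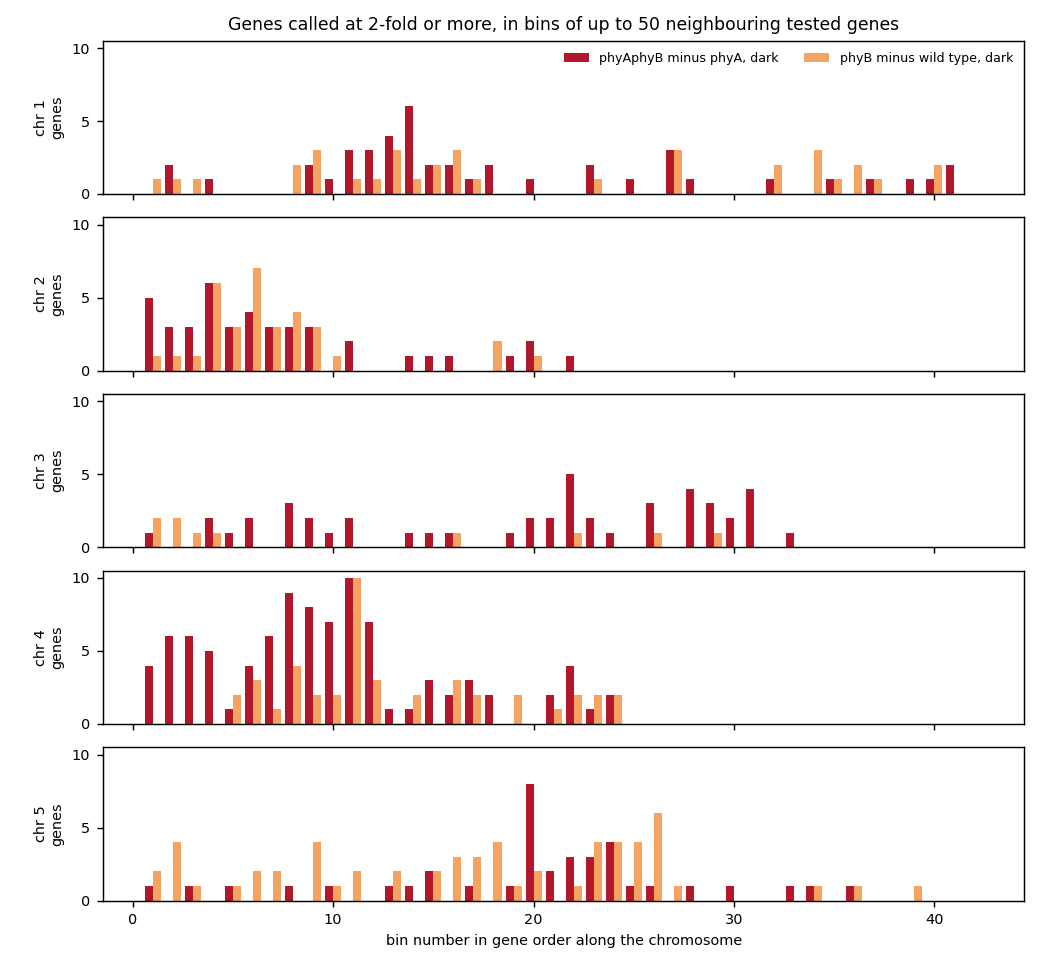
Number of genes called at 2-fold or more (y axis) in each bin of up to 50 neighbouring tested genes (x axis, bin number in gene order) on chromosomes 1 to 5, for phyAphyB minus phyA (dark red) and phyB minus wild type (orange) in darkness. The highest bars stand on chromosome 4, where the first 4 bins hold 21 genes for phyAphyB minus phyA and 0 for phyB minus wild type. The cut after 4 bins was not planned beforehand.

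Genes of light signalling and growth were then read by function, from 29 lists with 247 tested members. The share called over all tested probe sets, 12.4%, is the figure to read the lists against. Over the 8103 tested genes, each by its brightest probe set, it was 12.2% with a median log2 difference of 0.01. The 2 tested members of the phytochrome signalling list were not called, and neither had an unadjusted p under 0.05. FHL, which carries phytochrome A into the nucleus, read 652, 463 and 441 in phyAphyB and 539, 537 and 516 in phyA. The bZIP factor gene HYH was dim in all dark arrays, with 11.1, 32.8 and 30.2 in phyAphyB and 25, 13.7 and 20.1 in phyA. HAT2, a shade-induced homeobox gene, had a log2 difference of -0.22 ± 0.14 (adjusted p = 0.347) and the clock gene GI 0.14 ± 0.13 (adjusted p = 0.54).

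Of 10 auxin genes 2 rose and the other 8 were not called (20%, median log2 0.14). GH3.3, an enzyme that joins auxin to amino acids, gave 2038, 2412 and 2399 in phyAphyB and 1190.5, 1658 and 1296 in phyA, 1.66-fold higher (adjusted p = 0.00139). The groups did not overlap, and dark phyB against wild type differed by 0.75 ± 0.15 on the log2 scale, beside 0.73 ± 0.15 here. YUC6, a flavin monooxygenase of auxin synthesis, gave 170.1, 171 and 182 in phyAphyB and 25.4, 96.8 and 77.5 in phyA. Its lowest value was on phyA replicate 1, without which the adjusted p was 0.181, and the call was also lost without any of the 3 phyAphyB arrays (adjusted p = 0.085 to 0.089 in those fits). Among 21 cell wall genes 2 rose and 2 fell (19%, median 0.16). Beside PME61, the expansin-like gene EXLA2 fell to 341, 447 and 387 in phyAphyB, against 713, 1022 and 866 in phyA (2.2-fold, adjusted p = 3.84e-05). A second expansin-like gene, EXLA3, was higher with adjusted p = 0.0454, and 12 of 16 alternatives moved it past 0.05 (0.054 to 0.28). XTH19, a xyloglucan-remodelling enzyme, read 887, 778 and 908 in phyAphyB and 887, 2024 and 1312 in phyA, so the groups overlapped through phyA replicate 1. Against phyA replicate 1 alone its log2 difference was -0.05 (adjusted p = 0.904), and the call was also lost without phyA replicate 2, phyA replicate 3 or phyAphyB replicate 2 (adjusted p from 0.0542). The bright expansin gene EXPA8 and the cell wall anchor gene COB gave log2 values of 0.15 and 0.15 with no call.

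Of 3 antenna genes, all LHCB4 genes for a minor antenna protein of photosystem II, 2 fell and 1 was not called, and without phyA replicate 1 the count was 1 fall. LHCB4.2 fell to 973, 1206 and 697 in phyAphyB, against 2259, 2090.1 and 1832 in phyA (2.19-fold, adjusted p = 0.000183). LHCB4.1 read 7652, 7962 and 7088 in phyAphyB and 11792, 9709 and 9410.5 in phyA (1.36-fold lower, adjusted p = 0.00978), and had an adjusted p of 0.0528 without phyA replicate 1. LHCB4.3 overlapped between the groups (log2 -0.11 ± 0.16). Of 8 photosystem and carbon fixation genes 2 fell and 6 were not called (25%, median 0.01). The falls were PRK, the phosphoribulokinase of the Calvin cycle (log2 -0.42 ± 0.12), and ATPC1, a subunit of the plastid ATP synthase (log2 -0.43 ± 0.13). The call of PRK was lost without phyA replicate 1 or phyAphyB replicate 3, and that of ATPC1 without phyA replicate 1 or 3 or phyAphyB replicate 1 or 3 (adjusted p over both genes, 0.0519 to 0.144). Of 8 chlorophyll synthesis genes 1 rose (12.5%, median 0.26), HEME2, a uroporphyrinogen decarboxylase, with 913, 835 and 717 in phyAphyB and 612, 559 and 585 in phyA (adjusted p = 0.00823). Its call was lost without phyAphyB replicate 1 and against phyA replicate 1 alone (adjusted p = 0.0614 to 0.169). PORB, the protochlorophyllide oxidoreductase that is abundant in dark-grown seedlings, read 9537, 8080.3 and 8625 in phyAphyB and 8237, 6201 and 5675 in phyA (log2 0.40 ± 0.15, adjusted p = 0.0744). Of 66 plastid-encoded genes 0 were called by limma, with 2 at an unadjusted p under 0.05 and a median of 0.004. Without phyA replicate 1 the count was 1 rise and 2 falls, and against it alone the median was -0.24 with 0 calls. Of 10 mitochondrial genes 0 were called, with 0 at an unadjusted p under 0.05 and a median of 0.03 (-0.41 against phyA replicate 1 alone). The brightest plastid gene, rps4 of the ribosome, had a log2 difference of -0.37 ± 0.15 (adjusted p = 0.104).

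UDP-glycosyltransferases, which attach sugars to hormones, flavonoids and other small molecules, were the list with the most falls by number. Of 29 tested members 9 fell and 20 were not called (31%), with a median log2 difference of -0.40. Of all tested probe sets 12.4% were called and 6.24% were called lower, with a median of -0.003. The lists were chosen with earlier results of these data known, so this contrast is no independent check. UGT76E2 read 528, 583 and 624 in phyAphyB and 985, 1400.5 and 1436 in phyA (2.18-fold lower, adjusted p = 3.26e-07). UGT84A3, a sinapate glucosyltransferase, read 97.1, 77.8 and 99.7 in phyAphyB and 283, 208 and 201 in phyA (2.5-fold lower, adjusted p = 0.000132), and also fell in phyB against wild type (-1.26 ± 0.21). Neither gene overlapped between genotypes. UGT73B1 was 1.53-fold lower, and UGT72E2, a glucosyltransferase of lignin precursors, 1.62-fold lower. Each lost its call without phyA replicate 3 and against phyA replicate 1 alone, and UGT72E2 also without phyAphyB replicate 1 (adjusted p over both, 0.053 to 0.469). The count depended on the phyA arrays. It was 2 falls against phyA replicate 1 alone (median -0.22) and 12 without it (median -0.53). Summed over the 29 genes the signal was 11084.1 to 12720.3 in phyAphyB, against 13461.0 on phyA replicate 1 and 16624.0 and 17549.5 on replicates 2 and 3, the arrays with the high ribosomal signal. The part of that signal in the result was not tested. After red light 7 members fell and 22 were not called (24.1%, median -0.17), where 8.56% of all probe sets were called. Of 3 flavonoid genes the rhamnosyltransferase AT1G06000 fell (16.9, 32.1 and 42.8 in phyAphyB and 52.9, 80.6 and 51.2 in phyA, adjusted p = 0.0309). Its signals were dim and 8 of 16 alternatives moved it past 0.05, among them leaving out phyA replicate 2 or phyAphyB replicate 1 or 2 (adjusted p = 0.0504 to 0.281). UGT74B1, a glucosyltransferase of glucosinolate synthesis, read 112, 75.8 and 85.4 in phyAphyB and 105, 169 and 212 in phyA, which overlap. Its call (adjusted p = 0.0275) was lost against phyA replicate 1 alone (adjusted p = 0.725) and without phyA replicate 2 or 3 or phyAphyB replicate 2 or 3. Of 8 cytochrome P450 genes 1 fell (12.5%), CYP71B6, with 1128, 1251 and 1055 in phyAphyB and 2082, 2233 and 2106 in phyA (1.87-fold, adjusted p = 2.02e-06), beside a log2 difference of -0.90 ± 0.11 in phyB against wild type.

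Storage use and the response to long darkness held genes that moved in both directions. ICL, the isocitrate lyase that turns seed oil into sugar, gave 9645, 10651 and 8497 in dark phyAphyB, against 20427, 19322 and 22189 in dark phyA. Every phyAphyB array lay below every phyA array, and the gene was 2.16-fold lower (log2 -1.11 ± 0.11, adjusted p = 6.24e-08). It was 1 of 4 members of its list to be called, and OLEO3 and AIM1 overlapped between the groups. Of 14 genes of dark starvation 4 rose and 2 fell (42.9%, median 0.08), and against phyA replicate 1 alone 2 rose and 1 fell. IVD, an enzyme of leucine breakdown, fell to 4853, 5373 and 6041 in phyAphyB, against 9102, 9986 and 11617 in phyA (1.89-fold, adjusted p = 8.13e-07). MCCB, a carboxylase of the same pathway, was higher, with 12611, 13665 and 14732 in phyAphyB and 8989.7, 8447 and 10854 in phyA (1.46-fold, adjusted p = 0.000761), and its partner MCCA was not called (log2 -0.15 ± 0.10). Among the autophagy genes of the ATG8 family, ATG8C, ATG8F and APG8A were higher by 1.46-fold, 1.35-fold and 1.31-fold. APG8A lost its call when phyA replicate 2 or 3 or phyAphyB replicate 2 or 3 was left out (adjusted p = 0.0613 to 0.317), and ATG8C against phyA replicate 1 alone (adjusted p = 0.174). SAG101, a lipase-like gene of senescence, read 136, 165 and 152 in phyAphyB and 256, 256 and 254 in phyA (adjusted p = 0.0368) and lost its call when any array of the 2 groups was left out (adjusted p = 0.0555 to 0.222).

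Of 23 redox genes 4 rose and 1 fell (21.7%, median -0.04), and without phyA replicate 1 the count was 2 and 1. MSRB5 and MSRB9 encode methionine sulfoxide reductases, which repair oxidised methionine in proteins. MSRB5 gave 859.9, 948 and 781 in phyAphyB and 284, 250.2 and 300.3 in phyA (3.1-fold higher, adjusted p = 1.97e-06), and was not called in phyB (-0.40 ± 0.20, with adjusted p = 3.75e-05 for the difference between backgrounds). MSRB9 gave 2750.5, 2916 and 2494 in phyAphyB and 800.4, 1605 and 914 in phyA (2.57-fold higher, adjusted p = 5.9e-06). The glutaredoxin genes AT5G18600 and GRXC2, bright in both genotypes, were not called (log2 -0.35 ± 0.20 and 0.11 ± 0.19). MSRA5 and the glutathione transferase GSTU20 were called with adjusted p = 0.0111 and 0.0211, and each lost its call without phyA replicate 1. The call of MSRA5 was also lost without phyAphyB replicate 3 and that of GSTU20 without phyAphyB replicate 1 (adjusted p over both genes, 0.0509 to 0.155). GRX480, a glutaredoxin, read 173, 174 and 152 in phyAphyB and 202, 1047 and 271 in phyA, with phyA replicate 2 far above the others. STZ, a stress-induced zinc finger repressor, had the same array high, with 247, 344 and 202 in phyAphyB and 403, 1482 and 402 in phyA. The calls of both GRX480 and STZ (adjusted p = 0.0244 and 0.00949) were lost without phyA replicate 2 (adjusted p = 0.199 and 0.0726). That of STZ was also lost without phyAphyB replicate 3 and that of GRX480 without any phyAphyB array (adjusted p = 0.0522 to 0.0697 in those fits). Of 5 abscisic acid and cold genes 1 rose and 1 fell. The dehydrin gene AT2G21490 (LEA) fell to 328, 250.3 and 189 in phyAphyB, against 579.8, 773 and 633 in phyA (2.63-fold, adjusted p = 4.65e-06), and fell in phyB too (-1.25 ± 0.18). The dehydrin LTI30 was higher, with 2951, 2909 and 3048 in phyAphyB and 1494, 2216 and 2150.4 in phyA (1.54-fold, adjusted p = 0.00146).

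Root markers gave 1 call among 4, the lectin gene JAL22 (1.31-fold higher, adjusted p = 0.0247), lost without phyA replicate 1 or 2 or phyAphyB replicate 1 or 3 (adjusted p = 0.0614 to 0.121). PYK10 and NAI2 were not called (log2 -0.19 ± 0.14 and 0.04 ± 0.10), and the summed root signal was 29255.9 to 35087.7 in phyAphyB and 31042.6 to 35264.2 in phyA. The guard cell factor gene FMA was dim and not called. Of 4 cell cycle and histone genes 0 were called by limma, with 1 at an unadjusted p under 0.05. The counts were the same for 5 gibberellin genes, and for 4 defence genes 0 and 0. The ethylene factor gene EIN3 was not called (log2 0.06 ± 0.12). Of 9 genes often used as internal standards 3 were higher in phyAphyB and 6 were not called. ACT11, an actin gene, gave 582, 646 and 728 in phyAphyB and 303, 204 and 180.0 in phyA (2.91-fold higher, adjusted p = 5.37e-07). The tubulin genes TUB5 and TUB9 were 1.47-fold and 1.34-fold higher, and TUB9 lost its call without phyAphyB replicate 3 (adjusted p = 0.0602 to 0.189 with the comparison against phyA replicate 1 alone, where TUB5 had 0.0503). GAPC2, TUA6 and TUB6 were not called, with log2 differences of -0.13 ± 0.10, 0.20 ± 0.13 and 0.19 ± 0.10. The ribosomal protein gene PGY1, the single tested member of its list, was 1.43-fold higher and lost its call without phyA replicate 2 or 3 or phyAphyB replicate 1 (adjusted p = 0.0576 to 0.481).

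**Figure D5:**
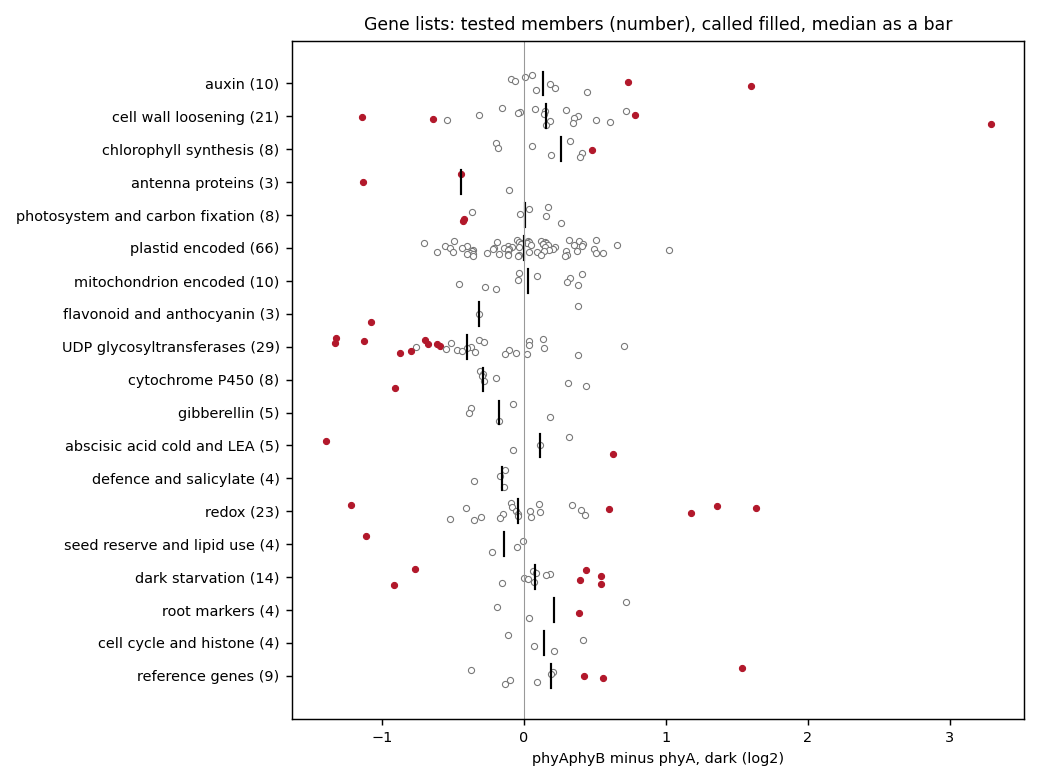
Log2 difference phyAphyB minus phyA in darkness (x axis) of each tested member of the gene lists with 3 or more tested members (y axis, number of members in parentheses), filled where called and with the list median as a bar. UDP-glycosyltransferases lie mostly left of 0, with 9 filled points and a median of -0.40, and the 66 plastid-encoded genes centre on 0 with none filled.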

How the data were processed

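RNA of whole seedlings was read on 24 Affymetrix arrays in 8 groups of 3. The deposited files hold 1 intensity per probe set and array, MAS5 signals of the authors on a linear scale, and MAS5 is named in the submitters' processing notes. The trimmed mean of each array is 500.04, while array medians run from 169.8 to 195.1. The number of arrays limits the precision. Of the 22810 probe sets, 64 controls were left out. Genes were named from GEO's platform annotation and a RefSeq gene table (TAIR10.1, names and gene order only): 13513 probe sets had 1 gene, 503 several and 8730 none.

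Signals were used as log2 values without a pseudocount (4 zeros were set to 0.05, 0 of them among the probe sets tested). A probe set was tested if it lay above its own array's 40th percentile on at least 3 arrays, which left 15085. limma 3.58.1 (R 4.3.3) fitted 1 mean per group over all 24 arrays, with an intensity trend and Benjamini-Hochberg adjustment, and recovered seeded changes in a simulated table. The simulated noise was independent between values. It cannot show how array-wide deviations, such as those of the dark phyA arrays, act on the calls. Contrasts were phyAphyB minus phyA in darkness and after red light, the difference between these, phyB minus wild type in darkness, and its difference from the dark phyAphyB contrast. Deviations from the group means of same-numbered dark phyAphyB and dark phyA arrays had correlations of 0.22, 0.003 and 0.18. Those of unlike-numbered arrays had -0.21 to 0.12. The numbers were not taken as pairs in the main fit, and whether they mark shared batches was not tested.

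Named genes are the 12 largest rises and 12 largest falls, up to 4 in each direction for the other contrasts, and per list up to 4 called genes and the 3 brightest others. GRX480, APG8A and SAG101 were added after their values were seen. The comparison, the members and the gene lists were chosen with earlier results of these data known. Alternatives were other scalings, filters and weights, a pseudocount, no trend, the compared groups alone, a replicate block and each array left out. Using dark phyA replicate 1 alone was among them.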

Additional observations from a re-analysis of the deposited data

Results flagged for a closer look

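The dark difference phyAphyB minus phyA and the dark difference phyB minus wild type were unequal for 915 probe sets by limma's interaction test, and the difference phyAphyB minus phyA was unequal between red light and darkness for 55. The part of the genotypes' unnamed alleles and strains and of gene position in these was not tested. Among named genes the difference between backgrounds (log2, phyAphyB minus phyA less phyB minus wild type) was positive for AT3G47250 (5.52), AT5G23830 (4.95), AT2G25450 (3.84), PME61 (3.36), AT2G16005 (2.93), AT3G47210 (2.61), AT4G17215 (1.33) and AT4G18975 (0.73). It was negative for AT3G47320 (-9.32), AT1G23960 (-6.42), AT4G01910 (-4.77), AT4G02540 (-4.37), AT3G61010 (-4.31), AT4G04460 (-4.23), AT2G23480 (-3.76), AT1G17960 (-3.76), AT3G63340 (-3.15), AT4G20860 (-2.56) and AT5G38020 (-1.47). The sizes for AT3G47320 and AT1G23960 rest on signals near the bottom of the scale in the groups other than phyB. The same holds for AT3G47250 in the dark groups other than phyAphyB, AT5G23830 on most phyB arrays and AT4G01910 in phyAphyB. Others, such as PME61 and AT3G63340, had dim groups as well.

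The red difference minus the dark difference was positive for AT4G01910 (1.70), EXO (1.69), AT1G76220 (1.59) and AT5G17850 (1.00). It was negative for AT5G50360 (-1.68), SWEET17 (-1.35), AT5G15950 (-1.28) and AT2G46420 (-1.24).

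The 25S ribosomal RNA control probe set, which takes no part in the comparisons, gave 10507.9 on dark phyA replicate 2 and 13573.9 on dark phyA replicate 3, where no other array exceeded 450.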

How the results depend on the processing

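The dark count of 1873 calls was 1127 with the compared groups fitted alone, 3956 with array weights and 965 against dark phyA replicate 1 alone, and 1236 to 2320 with each array left out. The count of 915 for the difference between backgrounds was 2298 with array weights, 557 against phyA replicate 1 alone and 654 to 1359 with an array left out. The count of 55 for the difference between red light and darkness was 348 with array weights and 40 to 150 with an array left out. Its share of positive calls was 18.2%, against 39.7% with array weights, 32.7% without phyA replicate 1 and 6.06% against it alone. The share for the difference between backgrounds was 48.3%, and 58.3% against phyA replicate 1 alone. The red count of 1292 stayed within 949 to 1154 with an array left out. With the replicate number as a block the counts were 1808 in darkness, 1245 after red light, 870 and 53, and among the named genes of the dark comparison only EXLA3 lost its call under that block.

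Of 61 named genes called in darkness, 37 kept the call in all alternatives run and 0 changed direction. All 23 leading genes called after red light kept it, as did 16 of 19 for the difference between backgrounds and 2 of 8 for the difference between red light and darkness. Where a group is dim, near or under array 40th percentiles of 97.4 to 127.3, the size of a fold is uncertain.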
